A study of Homo sapiens with 8 samples.

Results

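The 2 libraries of ERβ knockout cells were set against the 2 libraries of unmodified control cells. They make up 4 of the 8 RNA-seq libraries of a study of the isoforms of estrogen receptor beta (ERβ, gene ESR2) in glioblastoma. The members are all genes that passed a filter on low counts, 13915 of the 23228 genes listed. The labels give U87 MG, a human glioblastoma cell line, for all 8 libraries, grown in DMEM with 10% fetal bovine serum. The control cells carry no named change, and the knockout cells (U87-ERβ-KO) had ERβ removed with CRISPR/Cas9. In the remaining groups, per the labels, the ERβ1 or the ERβ5 isoform was put back into knockout cells (U87-ERβ1 and U87-ERβ5). They entered the filter on low counts and the scaling, and in the fit they add to the estimate of the spread. The labels do not say whether the knockout is 1 clone, or whether a group's 2 libraries stem from 2 separate cultures. The p-values therefore measure only the spread between these libraries, which may be technical.

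ERβ is a nuclear hormone receptor that binds estrogens and acts on genes as a transcription factor, alone or through other factors. Interferons are secreted proteins that cells release after sensing foreign nucleic acid. Through their receptors and the JAK kinases they activate a complex that includes STAT2 and IRF9. This complex binds the interferon-stimulated response element (ISRE) and turns on antiviral genes. Chaperones of the endoplasmic reticulum (ER) fold secreted and membrane proteins, and are induced together by the unfolded protein response through the factors ATF6 and XBP1.

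ESR2, at chr14:64550950-64804830, minus strand of GRCh37, was near the detection limit on both sides. The control libraries held 25 and 20 ESR2 reads and the knockout libraries 23 and 21. The CPM, which are counts per 1000000 of the TMM-scaled library size, were 0.608 and 0.546 in control and 0.528 and 0.692 in the knockout. The groups overlapped, and the log2 fold change of knockout over control was 0.06 ± 0.37 (SE here and below, edgeR quasi-likelihood test, adjusted p = 0.93). Counts over a whole gene need not fall after a small edit, and the edited position is not given, so these counts do not check the label.

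Reads counted in genes were 41594980 and 37014850 in control and 42655063 and 30429894 in the knockout, within a range of 26760897 to 48076414 over the series. Replicates correlated at r = 0.997 (control) and 0.992 (knockout) across log CPM of genes, which are not independent replicates, and differed by more than sampling noise (chi-square per degree of freedom 7.82 and 27.51). Alignments to no single place made up 39.7 and 39.9% of all counts, gene and non-gene rows together, in control and 35.4 and 36.4% in the knockout. The label glioblastoma was checked against markers. Of 21 luminal epithelial transcription factors, 15 reached 10 CPM in all 4 libraries, as did 25 of 36 keratins and simple epithelial markers, with GATA3 at 1115 to 1390 CPM and KRT8 at 2057 to 3292 CPM. Of 30 markers of mesenchymal glioma, 6 reached that level and 11 stayed under 1 CPM. Of 20 markers of astrocytes and glial progenitors, 2 reached it, SOX2 and SOX9, and 15 stayed under 1 CPM, with S100B, AQP4, OLIG1 and OLIG2 at 0 reads. The defining glial markers were thus near 0 in both groups. These values go against the label of a glioblastoma line, so the identity of the cells is in doubt, and the results below describe the cells as sequenced. Markers of microglia and lymphoid cells reached 10 CPM in 0 of 18 cases.

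The knockout libraries were marked by a large rise of antiviral and other interferon-induced genes. A smaller rise was seen in genes for mitosis, DNA replication and recombination repair. Falls were seen among ER chaperones, ribosomal proteins and some translation factors. With edgeR's quasi-likelihood test and Benjamini-Hochberg adjustment, 2434 genes had an adjusted p under 0.05, which is 17.5% of those tested. Of these, 1249 (8.98%) were higher and 1185 (8.52%) lower in the knockout, and the median log2 change over all genes tested was 0.01. These shares are the background for each list count below. In 35.5% of the genes tested both knockout libraries lay above both control libraries, and in 33.6% both lay below. Most calls were of modest size. Among rises, 273 genes reached 2-fold, 70 reached 4-fold and 31 reached 8-fold, against 126, 11 and 3 among falls. Genes of the interferon-induced lists made up 66 of the 273, 35 of the 70 and 17 of the 31. The number of calls fell when a library was left out, most strongly without control replicate 2 (237 calls). It was 506 without control replicate 1, 419 without knockout replicate 1 and 1480 without knockout replicate 2. There were 209 genes called in all 4 of these fits, 130 higher and 79 lower.

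**Figure D1:**
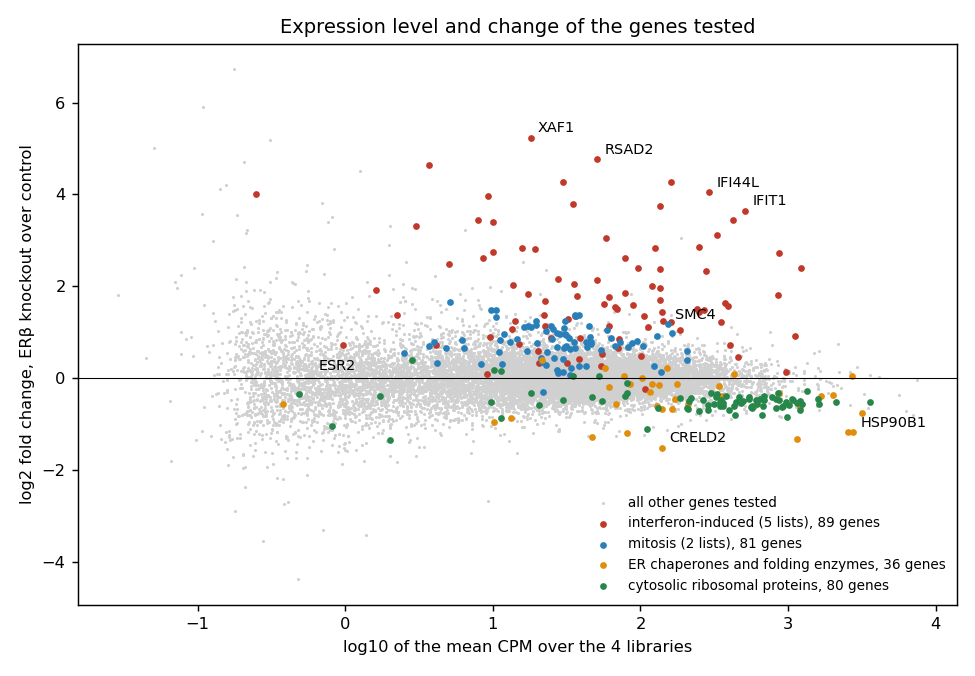
Each point is a tested gene, with the log10 of its mean CPM over the control and knockout libraries on the horizontal axis and the log2 fold change of knockout over control on the vertical axis. Interferon-induced genes (red) reach the largest rises at middle to high levels, mitosis genes (blue) lie mostly between 0 and 1.5, and ER chaperones (orange) and ribosomal proteins (green) lie mostly under 0 at high levels.

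Members of each of the 5 lists of interferon-induced genes rose. The 5 lists (IFIT proteins, OAS enzymes, restriction factors, ISG15 conjugation with PARP proteins, and other effectors) held 100 symbols, of which 89 were tested. Of the 89, 75 passed the test upward, 0 downward and 14 did not pass, with a median log2 change of 1.63. At an unadjusted p under 0.05 edgeR also placed 0 of them lower, as did DESeq2 with adjustment. With the trend of counts with GC content and length removed, 73 were higher and the median was 1.73. The knockout libraries both stood far above control: the summed level of the lists was 6603 and 6665 CPM in control and 21970.0 and 19200.0 CPM in the knockout. Knockout replicate 1 was the higher of the pair for 67 of the 75 genes that rose. Leaving out a library kept 45 to 68 genes called (45 without control replicate 2, 48 without control replicate 1, 49 without knockout replicate 1), and the median stayed between 1.56 and 1.67.

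The IFIT proteins bind viral RNA and block its translation. IFIT1 was at 76.6 and 74.6 CPM in the control libraries and 1038 and 858 CPM in the knockout libraries, a log2 change of 3.65 ± 0.23 (adjusted p = 4.8e-05). IFIT3, its binding partner, was at 15.4 and 16.5 CPM in control and 371 and 244 CPM in the knockout (4.27 ± 0.42, adjusted p = 0.00073). In IFIT1 and IFIT3 the lowest knockout library exceeded the highest control library more than 10-fold. IFIT2 rose by 3.75 ± 0.45 and IFIT5 by 1.61 ± 0.15, so that all 4 tested members of the family rose. IFIT1B, the remaining member, held at most 6 reads and was not tested.

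The OAS enzymes sense double-stranded RNA and make a second messenger of the antiviral response. OAS3 was at 230.3 and 219.8 CPM in control and 1716 and 1280.3 CPM in the knockout, a log2 change of 2.73 ± 0.18 (adjusted p = 2.3e-05). OAS2 went from 71 and 71.3 to 916 and 630.3 CPM (3.44 ± 0.27), and OAS1 from 91.9 and 93.8 to 509 and 423 CPM (2.33 ± 0.26). These 3 genes were called in all 4 fits with a library left out. OASL rose by 2.40 ± 0.41 (adjusted p = 0.007, but 0.088 without control replicate 2).

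Of 26 tested restriction factors, which act directly on viruses, 20 rose, with a median of 1.31. RSAD2 (viperin), which makes a chain-ending nucleotide, went from 3.26 and 3.99 to 109 and 87.6 CPM (4.77 ± 0.46, adjusted p = 0.00073). The nucleotide-depleting enzyme SAMHD1 went from 35.7 and 32.7 to 142 and 105 CPM (1.85 ± 0.16). The tether BST2, the RNA-activated kinase EIF2AK2 (PKR) and the RNA editor ADAR rose by 1.25 ± 0.13, 1.71 ± 0.14 and 0.92 ± 0.11. The nuclear body protein SP110 rose by 2.13 ± 0.20, and GBP4, a guanylate-binding protein, by 3.32 ± 0.56 (adjusted p = 0.0067, but 0.094 without control replicate 2). MX2, ISG20, IFITM2, PML, SLFN5 and GBP2 were the members that did not pass.

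In the system that attaches the ubiquitin-like ISG15 and in the PARP genes listed with it, 11 of 12 rose, with a median of 1.62. The ligase HERC5 went from 1.29 and 1.36 to 16.6 and 12.3 CPM (3.45 ± 0.28, adjusted p = 8.3e-05), and its relative HERC6 from 12.7 and 12.3 to 112 and 95.5 CPM (3.05 ± 0.14, adjusted p = 7.4e-07). PARP14 rose by 1.63 ± 0.13, and PARP9 and its partner ligase DTX3L by 1.48 ± 0.15 and 1.5 ± 0.14. USP18, which removes ISG15 and dampens receptor signalling, rose by 2.05 ± 0.23. PARP11 did not pass. Among the 46 other effectors 40 rose, with a median of 1.72, and they included the largest rise among called genes with at least 5 CPM. This was XAF1, a promoter of apoptosis, which went from 0.851 and 1.01 to 38.7 and 31.5 CPM (5.24 ± 0.53, adjusted p = 0.00089). IFI44L went from 33.4 and 33.5 to 594 and 509 CPM (4.04 ± 0.17, adjusted p = 5.8e-07). The 15 largest rises among genes with at least 5 CPM also included CMPK2 (4.27 ± 0.43), SAMD9L (3.97 ± 0.45), SAMD9 (3.79 ± 0.37), RTP4 (4.65 ± 0.64) and IFI27 (3.39 ± 0.54). All but 1 of these 15 were in the interferon lists, the other being the apoptosis inhibitor BIRC3. RTP4, IFI27 and BIRC3 lost the call in a fit with a library left out (highest adjusted p 0.058 without control replicate 2, 0.077 without control replicate 2 and 0.066 without control replicate 2).

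**Figure D2:**
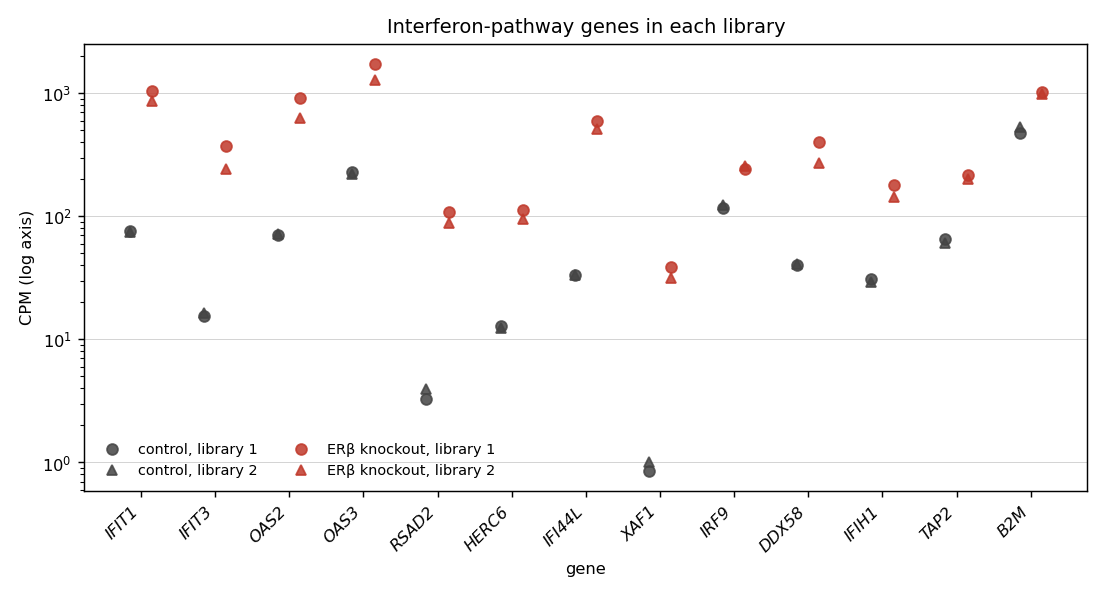
CPM on a log axis of 13 genes of the interferon pathway, with each control library in grey and each knockout library in red (circles for replicate 1, triangles for replicate 2). The knockout libraries lie above the control libraries for each gene shown, by the widest margin for XAF1 and RSAD2 and by the narrowest for B2M and IRF9.

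Promoters of these genes were examined for the ISRE. The lists hold genes known as interferon-induced, so a high share of matches may come with list membership alone. It is no test of the change in these libraries. RefSeq promoter windows (250 bases before to 50 after each annotated start, GRCh38.p14) were found for 68 of the 89 genes. The ISRE core, spelled GAAA, any 2 bases, GAAA and searched on both strands, was in a window of 43 of the 68 (63.2%). It was in a window of 4.38% of the 27305 genes of the table and in 3.89% of the tested genes with a window. Among the genes that rose, 41 of 61 held it, and among those that did not pass, 2 of 7. A match describes these letters and is not shown to be a bound site. The 2 called genes with the smallest adjusted p and a match are shown 5′ to 3′ up to the start, with the match in capitals. IFI44L (chr1:78620198-78620447, plus strand) has matches starting 164 and 73 bases before the start, and DDX60, a helicase of the antiviral response (chr4:168318753-168319002, minus strand), has matches 88 and 53 bases before it.
IFI44L: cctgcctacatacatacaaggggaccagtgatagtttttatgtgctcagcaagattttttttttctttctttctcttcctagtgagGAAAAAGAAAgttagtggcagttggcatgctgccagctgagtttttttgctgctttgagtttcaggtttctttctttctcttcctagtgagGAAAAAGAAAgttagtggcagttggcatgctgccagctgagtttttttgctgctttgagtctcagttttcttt
DDX60: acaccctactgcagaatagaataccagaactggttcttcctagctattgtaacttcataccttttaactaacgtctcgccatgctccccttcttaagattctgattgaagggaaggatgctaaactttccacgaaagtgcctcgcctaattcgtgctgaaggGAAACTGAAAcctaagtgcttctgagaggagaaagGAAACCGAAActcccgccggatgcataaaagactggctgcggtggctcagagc
DDX60 was at 59.7 and 60.9 CPM in control and 490.4 and 381 CPM in the knockout, a log2 change of 2.85 ± 0.15 (adjusted p = 1.7e-06).

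The genes upstream of this response changed unevenly. Interferon transcripts were almost absent: of 21 ligand genes 17 had 0 reads in all 4 libraries, and only IL29 (IFNL1) passed the count filter. That filter ran over all 8 libraries, with those labelled ERβ1 and ERβ5. IFNB1, the type I interferon of non-immune cells, had 0 and 2 reads in control and 6 and 4 in the knockout. It was not tested under that filter. IL29 was at 0.0973 and 0.109 CPM in control and 0.528 and 0.231 CPM in the knockout, higher in both knockout libraries without passing (1.92 ± 0.90, adjusted p = 0.15), except in a fit with no filter on low counts (adjusted p = 0.014). IL28A and IL28B had 0 reads in both control libraries. In the knockout libraries IL28A had 0 and 3 reads and IL28B had 4 and 1. The 20 ligand genes other than IL29 were not tested under the count filter, and their reads were absent or too few to judge a difference.

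Of 9 receptor and JAK genes, 3 rose, and 1 with the GC and length trend removed. The kinase JAK2 went from 16.2 and 14.7 to 23.3 and 27 CPM (0.70 ± 0.13, adjusted p = 0.0068), while JAK1 and the interferon gamma receptor IFNGR1 rose by 0.35 ± 0.10 and 0.43 ± 0.13. The type I receptor subunits IFNAR1 (0.42 ± 0.15, adjusted p = 0.07) and IFNAR2 (-0.01 ± 0.16, adjusted p = 0.96) did not pass, nor did TYK2, although IFNAR1 passed in a fit of only the 4 libraries (adjusted p = 0.0046), with no filter on low counts (0.0081) and with DESeq2 (0.045). The calls of JAK2, JAK1 and IFNGR1 were lost in a fit with a library left out (highest adjusted p 0.097 without control replicate 2, 0.19 without control replicate 1 and 0.22 without control replicate 2). JAK2 and IFNGR1 had, with the GC and length trend removed, log2 changes of 0.37 and 0.25 (adjusted p = 0.098 and 0.17).

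Both IRF9 and STAT2, subunits of the factor that binds the ISRE, rose. IRF9 went from 116 and 124 to 244 and 255 CPM (1.05 ± 0.13, adjusted p = 0.0009), and STAT2 from 69.2 and 73.3 to 177 and 133 CPM (1.12 ± 0.21, adjusted p = 0.0091). These genes are themselves interferon-induced. IRF7 and IRF1, further factors of the response, rose by 1.67 ± 0.34 and 0.90 ± 0.25 with 6 of 18 tested members of the list called in all. STAT2, IRF7 and IRF1 lost the call with a library left out (highest adjusted p 0.086 without control replicate 2, 0.14 without control replicate 2 and 0.22 without control replicate 2), and IRF1 also with the GC and length trend removed (adjusted p = 0.068). IRF3, the factor activated directly by the sensors, was at 46.2 and 50.4 CPM in control and 43 and 38.5 CPM in the knockout and did not pass (-0.24 ± 0.12, adjusted p = 0.17), and neither did STAT3, STAT5B or the feedback inhibitors SOCS1 and SOCS3.

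Among 19 tested sensors and adaptors 7 rose (3 to 8 with a library left out), and the strongest were the cytosolic sensors of double-stranded RNA. DDX58 (RIG-I) went from 39.9 and 41.3 to 399.5 and 273 CPM (3.05 ± 0.21, adjusted p = 6.9e-05), and IFIH1 (MDA5) from 31 and 29.2 to 181 and 142 CPM (2.43 ± 0.24, adjusted p = 0.00082). Their relative DHX58 rose from 0.0973 and 0.164 to 1.56 and 1.22 CPM (3.41 ± 0.76, adjusted p = 0.018) and the endosomal sensor TLR3 by 2.54 ± 0.45, and both lost the call with a library left out (highest adjusted p 0.13 without control replicate 1 and 0.079 without control replicate 1). The shared adaptor of RIG-I and MDA5, MAVS, was at 247 and 239 CPM in control and 228 and 199 CPM in the knockout (-0.18 ± 0.12, adjusted p = 0.31). The DNA sensor cGAS (MB21D1) and its adaptor STING (TMEM173) had log2 changes of 0.18 ± 0.16 and 0.19 ± 0.15. None of these 3 passed.

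Genes of antigen presentation rose in part. Of 15 genes for peptide processing and loading, 7 rose and 2 fell. The 7 became 6 without knockout replicate 2 and 1 in each of the other 3 fits with a library left out. The peptide transporter TAP2 had 64.9 and 60.2 CPM in control and was higher in both knockout libraries (1.74 ± 0.21, adjusted p = 0.0012) and its partner TAP1 went from 72.9 and 77.4 to 217 and 193 CPM (1.45 ± 0.28, adjusted p = 0.01). NLRC5, the activator of class I genes, rose by 1.84 ± 0.34 and the immunoproteasome subunit PSMB9 by 2.02 ± 0.41. The 2 that fell, CALR and PDIA3, are also general ER chaperones. B2M, the invariant chain, went from 477 and 529 to 1031 and 981 CPM (1.00 ± 0.19, adjusted p = 0.0086). Of the 7 tested genes of HLA class I with B2M, B2M was the 1 called. Both knockout libraries lay above control in 6 of the 7. The lowest log2 change was -3.30, in a class I gene that did not pass. HLA-B, HLA-C, HLA-E and HLA-F lay higher in both knockout libraries but did not pass. Their log2 changes were from 0.30 to 0.87, with adjusted p from 0.08 to 0.44. In a fit of only the 4 libraries HLA-C and HLA-F passed (adjusted p = 0.033 and 0.00042). Reads of these near-identical genes can be lost to multiple alignment. TAP1, NLRC5, PSMB9 and B2M lost the call with a library left out (highest adjusted p 0.11 without control replicate 2, 0.097 without control replicate 2, 0.13 without control replicate 2 and 0.076 without control replicate 1), and B2M also with the GC and length trend removed (adjusted p = 0.054).

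Genes of NF-kB and early response were raised in a smaller share of members. In the NF-kB list 8 of 23 rose and 1 fell (median 0.32), and 2 to 5 rose with a library left out. The feedback inhibitor TNFAIP3 (A20) went from 3.21 and 2.89 to 10.3 and 9.62 CPM (1.71 ± 0.23, adjusted p = 0.0015) and the nuclear cofactor NFKBIZ from 11.2 and 12.2 to 34.7 and 26 CPM (1.38 ± 0.17, adjusted p = 0.0009). Both were called in all 4 fits with a library left out. Of 20 tested cytokines and chemokines 5 rose and 0 fell (2 or 3 rose with a library left out, 8 with the GC and length trend removed). CCL20, a chemokine that draws dendritic cells and lymphocytes, went from 0.0487 and 0.164 to 2.16 and 2.7 CPM (4.50 ± 0.51, adjusted p = 0.00065), and CCL22 from 1.51 and 1.34 to 7.46 and 5.93 CPM (2.23 ± 0.30, adjusted p = 0.0016). CCL5 and TNF stayed under 5 CPM while rising by 2.05 ± 0.37 and 2.09 ± 0.52, and lost the call with a library left out (highest adjusted p 0.068 without control replicate 2 and 0.19 without control replicate 2). Among 35 immediate early genes, which respond to growth signals and stress, 9 rose and 0 fell (3 or 4 rose with a library left out). FOS, EGR1 and KLF6 rose by 1.11 ± 0.12, 1.23 ± 0.14 and 1.17 ± 0.15, with EGR1 at 70.9 and 76.5 CPM in control and 202 and 144 CPM in the knockout.

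Genes that build the mitotic spindle, condense chromosomes and complete cell division were higher in the knockout. Across the 2 mitosis lists 59 of 81 genes rose and 0 fell, with a median log2 change of 0.78. With the GC and length trend removed 65 rose and the median was 0.70. Their summed level was 2672 and 2438 CPM in control and 4449 and 3914 CPM in the knockout. In both groups the library labelled replicate 1 was the higher. The count depended on single libraries. It was 19 without control replicate 2 and 32 without knockout replicate 1, with the median between 0.66 and 0.87.

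At the kinetochore, the complex that joins chromosomes to the spindle, 29 of 42 genes rose. CENPK was at 5.96 and 4.97 CPM in control and 15.4 and 15.4 CPM in the knockout (1.49 ± 0.16, adjusted p = 0.00047). NUF2 and SPC25, subunits of the microtubule-binding NDC80 complex, rose by 1.37 ± 0.20 and 1.49 ± 0.20. NUF2 was not picked by the rule for named genes given below. The checkpoint protein MAD2L1 went from 11.8 and 11.2 to 26.4 and 28.4 CPM (1.25 ± 0.18). Among motors, condensins and cytokinesis genes 30 of 39 rose. SMC4, a condensin subunit, went from 98.3 and 90.9 to 235 and 193 CPM (1.18 ± 0.14, adjusted p = 0.00073). AURKA, TOP2A and the kinesin KIF2C rose by 0.88 ± 0.11, 0.99 ± 0.14 and 1.05 ± 0.15. All 8 genes named here were called in all 4 fits with a library left out.

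Promoters of mitosis genes are known for the cell cycle homology region (CHR) and for CCAAT boxes. Windows were found for 67 of the 81 genes. TTTGAA, the CHR, was in a window of 43 of the 67 (64.2%), against 18.2% of all genes in the table and 13.7% of tested genes. It was in 34 of 49 genes that rose and in 9 of 18 that did not pass. CCAAT was in 49 of the 67 (73.1%), against 39.7% of all genes and 43.5% of tested genes. Both were searched on both strands, and neither motif contains the other. The called gene with the smallest adjusted p and a CHR match is SMC4 (chr3:160399400-160399649, plus strand), where the match, in capitals, starts 75 bases before the start.
SMC4: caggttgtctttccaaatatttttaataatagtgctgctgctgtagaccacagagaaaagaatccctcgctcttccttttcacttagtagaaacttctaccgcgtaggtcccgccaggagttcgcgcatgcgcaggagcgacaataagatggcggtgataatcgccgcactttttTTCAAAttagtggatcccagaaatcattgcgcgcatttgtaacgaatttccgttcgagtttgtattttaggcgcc
No CCAAT box is in these letters of the SMC4 window.

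The regulators of these genes changed in part. MYBL2, which activates genes of the late cell cycle, went from 54.3 and 50.6 to 112 and 99.7 CPM (1.01 ± 0.11, adjusted p = 0.00037), and FOXM1, which acts after it, from 65 and 59.7 to 102 and 92.6 CPM (0.64 ± 0.10, adjusted p = 0.0029, but 0.068 without control replicate 2). Of 20 genes of this list, 7 rose and 0 fell (2 to 6 rose with a library left out). E2F1, E2F2 and E2F3 did not pass, with log2 changes of 0.29 ± 0.12, 0.41 ± 0.17 and 0.19 ± 0.11 (adjusted p = 0.1, 0.11 and 0.26), and neither did RB1. E2F1 and E2F2 passed with the GC and length trend removed, with log2 changes of 0.61 and 0.60 (adjusted p = 0.0072 and 0.024). Of 25 tested cyclins and cell cycle kinases 10 rose and 0 fell (3 to 9 rose with a library left out). Cyclin B (CCNB1), which drives mitosis with CDK1, went from 90.4 and 84.6 to 163 and 164 CPM (0.90 ± 0.11), and CDK1 and cyclin A (CCNA2) rose by 1.06 ± 0.13 and 1.09 ± 0.17. Of 72 replication-dependent histone genes, whose transcripts mark S phase, 25 were too low to be tested, so the list was read only in part. The 47 tested passed in 0 cases under edgeR's quasi-likelihood test (median 0.19) and in 0 under DESeq2. At an unadjusted p under 0.05 edgeR placed 3 higher and 0 lower, and with the GC and length trend removed 5 passed upward.

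In the DNA replication list 20 of 48 genes rose and 1 fell, with a median of 0.36. With a library left out 3 to 20 rose (3 without control replicate 2, 6 without knockout replicate 1, 9 without control replicate 1). After the GC and length trend was removed 23 rose and 0 fell, with a median of 0.38. The nucleotide reductase subunit RRM2 went from 131 and 101 to 252 and 220.0 CPM (1.03 ± 0.13, adjusted p = 0.0011), and the replicative helicase subunit CDC45 from 18.1 and 16.6 to 32.5 and 31 CPM (0.87 ± 0.12, adjusted p = 0.0013). The licensing factor CDT1 was the 1 gene that fell (-0.53 ± 0.17, adjusted p = 0.047, but 0.31 without control replicate 1 and 0.43 with the GC and length trend removed). The E2F site, spelled TTTNGCGC on either strand, was in a window of 17 of the 41 replication genes with a promoter (41.5%), in 2.17% of all genes and in 3.58% of tested genes. It was in 8 of 18 genes that rose and in 9 of 23 others. The printed window is ORC6, a subunit of the origin recognition complex (chr16:46689409-46689658, plus strand), with the match in capitals 123 bases before the start.
ORC6: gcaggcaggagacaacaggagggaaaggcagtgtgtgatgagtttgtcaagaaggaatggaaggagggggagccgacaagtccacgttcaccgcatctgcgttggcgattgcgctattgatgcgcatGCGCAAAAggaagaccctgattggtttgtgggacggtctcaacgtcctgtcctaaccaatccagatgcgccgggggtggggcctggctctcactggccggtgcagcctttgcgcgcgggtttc
ORC6 went from 6.98 and 6.5 to 13.7 and 12.9 CPM (0.98 ± 0.13, adjusted p = 0.0015).

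Homologous recombination and the Fanconi anemia pathway repair broken and crosslinked DNA, and 23 of 37 of their genes rose with 0 falling (median 0.62). With the GC and length trend removed 19 rose and the median was 0.47, and without control replicate 2 the count was 2. The nuclease subunit EME1 went from 7.08 and 7.18 to 15.4 and 13.4 CPM (1.02 ± 0.14, adjusted p = 0.0017) and the helicase BRIP1 from 122 and 106 to 237 and 194 CPM (0.92 ± 0.14, adjusted p = 0.0026). Of 14 cohesin genes 6 rose (1 to 5 with a library left out), led by the centromere protector SGOL1 (1.12 ± 0.17). Of 25 p53 targets 2 rose and 2 fell (median -0.09), and 0 passed with any library left out. MDM2 and BAX, both induced by p53, passed in opposite directions, MDM2 by 0.43 ± 0.10 and BAX by -0.41 ± 0.11, and both calls were lost with any library left out (highest adjusted p 0.13 without control replicate 1 and 0.25 without control replicate 2) and with the GC and length trend removed (adjusted p = 0.17 and 0.41).

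**Figure D3:**
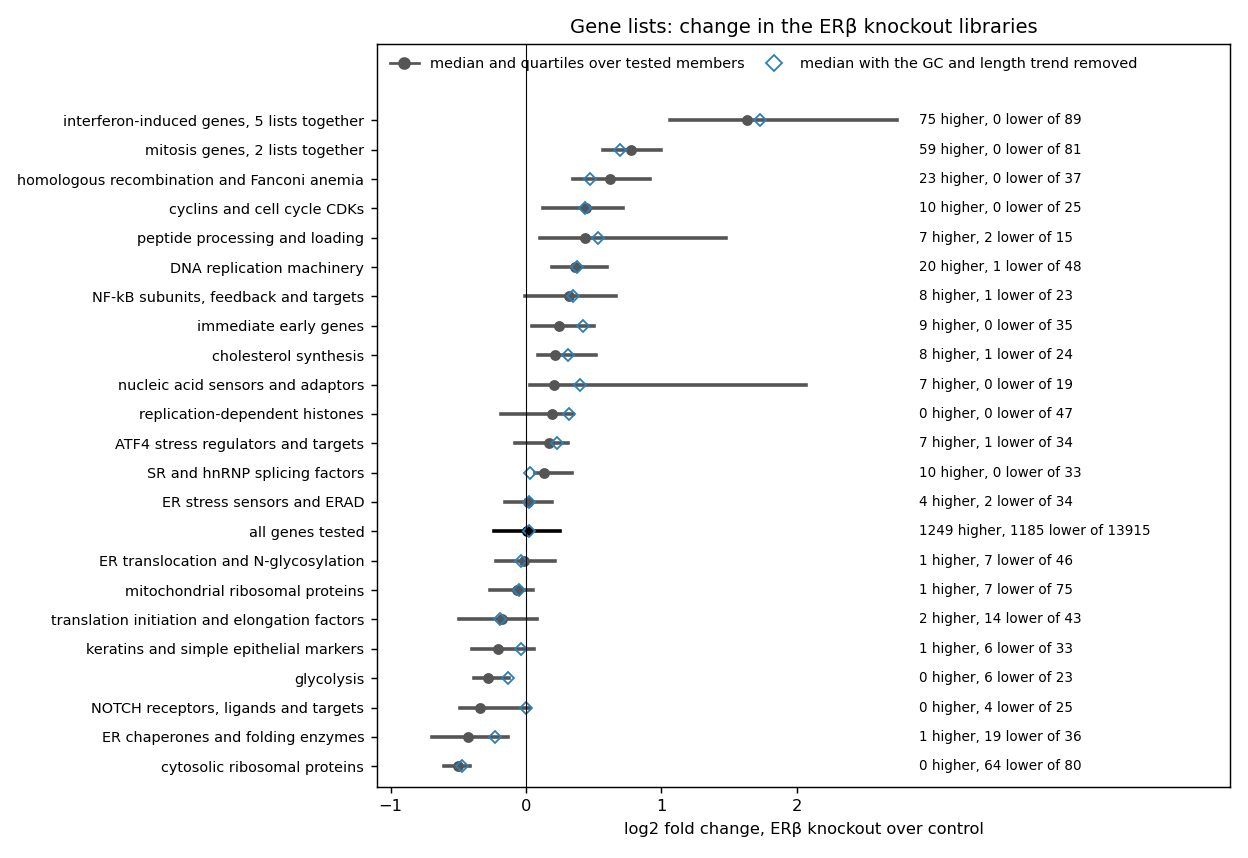
Median and quartiles of the log2 fold change of knockout over control for 23 sets of genes, with the number called in each direction at the right and, as open diamonds, the median with the GC and length trend removed. Interferon-induced genes (median 1.63) and mitosis genes (0.78) lie highest, cytosolic ribosomal proteins (-0.50) and ER chaperones (-0.43) lowest.

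Chaperones of the ER passed downward in more than 50% of their list. Genes of ER stress sensing and degradation passed in shares near those of all genes tested. Of 36 chaperones and folding enzymes 19 fell and 1 rose, with a median of -0.43. With the GC and length trend removed 16 fell and the median was -0.23. Without 1 library 7 to 20 fell (7 without control replicate 2, 9 without knockout replicate 1, 12 without control replicate 1). CRELD2, induced by ER stress, was at 198 and 214 CPM in control and 60.8 and 83.8 CPM in the knockout (-1.51 ± 0.14, adjusted p = 0.00014). HSP90B1 (GRP94), the HSP90 of the ER and among the most abundant members, went from 3813 and 3834 to 1593 and 1798 CPM (-1.17 ± 0.11, adjusted p = 0.00026). The disulfide isomerase PDIA4 went from 1638 and 1669 to 597 and 723 CPM (-1.33 ± 0.12, adjusted p = 0.00018) and the lectin chaperone CALR from 3459.9 and 3616 to 1354 and 1798 CPM (-1.17 ± 0.14). In each of these genes knockout replicate 1 was the lower of the pair and neither knockout library reached the control level. HSPA5 (BiP), the master chaperone, was named after its values were seen. It was at 4045 and 3930.0 CPM in control and 1792 and 2938 CPM in the knockout, with the knockout libraries far apart (-0.75 ± 0.19, adjusted p = 0.025, but 0.13 without control replicate 2).

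The ER stress element, spelled CCAAT, any 9 bases, CCACG, is bound by ATF6 with the factor NF-Y. It was in a window of 7 of the 32 chaperone genes with a promoter (21.9%), against 25 of the 27305 genes of the table (0.0916%) and 0.152% of tested genes. It was in 6 of 16 genes that fell and in 1 of 16 others. The 2 with the smallest adjusted p are shown with the matches in capitals. CRELD2 (chr22:49918384-49918633, plus strand) has 1 match starting 80 bases before the start, and HSP90B1 (chr12:103930160-103930409, plus strand) has matches 194 and 89 bases before it. The CCAAT box of the mitosis promoters is part of this element.
CRELD2: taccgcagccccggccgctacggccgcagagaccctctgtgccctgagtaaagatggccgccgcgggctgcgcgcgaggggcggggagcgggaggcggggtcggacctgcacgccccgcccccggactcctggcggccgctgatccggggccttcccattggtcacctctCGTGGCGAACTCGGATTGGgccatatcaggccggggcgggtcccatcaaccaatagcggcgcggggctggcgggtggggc
HSP90B1: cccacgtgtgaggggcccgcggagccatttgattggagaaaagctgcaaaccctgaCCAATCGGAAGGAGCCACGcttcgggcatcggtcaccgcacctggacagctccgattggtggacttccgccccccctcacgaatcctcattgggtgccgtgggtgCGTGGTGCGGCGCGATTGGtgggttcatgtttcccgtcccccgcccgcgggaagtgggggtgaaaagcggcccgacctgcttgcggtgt

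Of 34 sensors and degradation genes of the ER stress response, 4 rose and 2 fell, with a median of 0.02. These were 11.8 and 5.88% of the list, against 8.98 and 8.52% of all genes tested. With a library left out 0 rose and 0 to 2 fell, and with the GC and length trend removed 3 rose and 4 fell. ATF6 and ERN1 (IRE1), which sense unfolded proteins, rose by 0.40 ± 0.09 and 0.48 ± 0.13, and both lost the call with any library left out (highest adjusted p 0.2 without control replicate 2 and 0.26 without control replicate 2). ATF6 also lost it with the GC and length trend removed (adjusted p = 0.081). XBP1 was among the most abundant transcripts, at 3489 and 3555 CPM in control and 3611 and 3789 CPM in the knockout, and did not pass (0.07 ± 0.10, adjusted p = 0.64). The degradation factor HERPUD1 and the stress factor DDIT3 (CHOP), which stress raises with the chaperones, had log2 changes of 0.01 ± 0.13 and -0.22 ± 0.19 and did not pass (adjusted p = 0.97 and 0.43). The membrane-bound factor CREB3L4 fell by 0.57 ± 0.10 on the log2 scale (adjusted p = 0.0048, but 0.089 without control replicate 2). In translocation and N-glycosylation 7 of 46 fell and 1 rose (median -0.02), and 0 to 5 fell with a library left out. In vesicle transport between ER and Golgi 6 of 40 rose and 6 fell, but with the GC and length trend removed 1 rose and 1 fell, and with a library left out 0 or 1 rose and 0 to 4 fell. Among 34 regulators and targets of ATF4, the factor of the amino acid stress response, 7 rose and 1 fell. In the fit with the GC and length trend removed 12 rose and 0 fell, and with a library left out 1 to 5 rose and 0 to 4 fell. The cystine transporter SLC7A11 went from 98.3 and 91.6 to 258 and 256 CPM (1.44 ± 0.14, adjusted p = 0.00022), and asparagine synthetase (ASNS) rose by 0.67 ± 0.12 (adjusted p = 0.0053, but 0.076 without control replicate 2).

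Most genes of cytosolic ribosomal proteins were lower by a small and similar amount. Of 80 tested cytosolic ribosomal proteins 64 fell and 0 rose, with a median log2 change of -0.50 and quartiles of -0.60 and -0.41. The groups did not overlap in the summed level of these genes, which was 50510.0 and 51080.0 CPM in control and 32530.0 and 37950.0 CPM in the knockout. The number called depended on which library was left out, at 61 without knockout replicate 2, 16 without control replicate 1, 9 without knockout replicate 1 and 5 without control replicate 2. The median stayed between -0.63 and -0.41. With the GC and length trend removed 54 fell (median -0.47). RPS29 went from 253 and 251 to 155 and 163 CPM (-0.66 ± 0.10, adjusted p = 0.002) and RPL13A from 546 and 570.3 to 293 and 349 CPM (-0.80 ± 0.12, adjusted p = 0.0027). These genes have many near-identical pseudogenes, and the share of alignments to no single place was also lower in both knockout libraries. Its part in the result was not tested.

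Translation factors and snoRNA hosts, some of which share the pyrimidine tract that starts ribosomal protein transcripts, also had members that fell. The elongation factor EEF2 was at 9304 and 8576 CPM in control and 4733 and 5500.5 CPM in the knockout (-0.81 ± 0.12, adjusted p = 0.0027), and EEF1B2 at 126 and 123 and 71.3 and 81.8 CPM (-0.70 ± 0.12, adjusted p = 0.0036). In the list of initiation and elongation factors 14 of 43 fell and 2 rose (2 to 12 fell with a library left out). Of 14 nuclear and snoRNA host noncoding genes 7 fell and 1 rose (2 to 7 fell with a library left out). GAS5, a snoRNA host that carries such a tract, went from 532 and 541 to 236 and 343 CPM (-0.89 ± 0.15, adjusted p = 0.0038), and SNHG8 from 264 and 234 to 99 and 151 CPM (-1.0 ± 0.17, adjusted p = 0.0044). The nuclear RNA TUG1 was the 1 that rose (0.48 ± 0.11, adjusted p = 0.014, but 0.13 without control replicate 2). ZNFX1-AS1 (ZFAS1), a snoRNA host named for its place antisense to ZNFX1, fell from 326 and 315 to 157 and 209 CPM (-0.81 ± 0.13). The strand setting of the counting is not given, so its reads cannot be told apart from those of ZNFX1 where the genes overlap. Mitochondrial ribosomal proteins passed downward in 7 of 75 (9.33%, near the 8.52% of all genes tested) and upward in 1 (median -0.07). For nucleolar ribosome assembly, 3 of 45 fell and 2 rose (median 0.003), and 0 to 3 fell and 0 or 1 rose with a library left out.

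**Figure D4:**
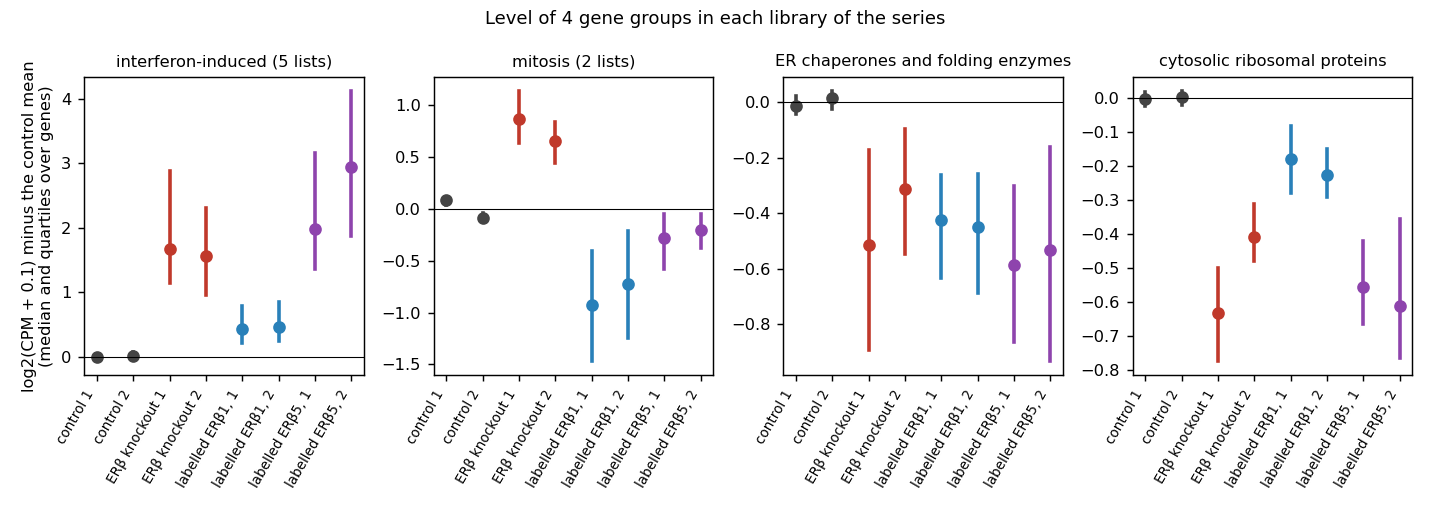
Level of 4 groups of genes in each of the 8 libraries, as log2(CPM + 0.1) minus the mean of the control libraries, with the median (point) and quartiles (line) over the genes of a group. In the knockout libraries the medians are 1.68 and 1.56 for interferon-induced genes, 0.87 and 0.66 for mitosis genes, -0.52 and -0.31 for ER chaperones and -0.63 and -0.41 for ribosomal proteins.

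The same levels can be set beside those of the libraries labelled ERβ1 and ERβ5. ESR2 held 6 and 18 reads (0.225 and 0.372 CPM) in those labelled ERβ1 and 7 and 10 reads (0.201 and 0.367 CPM) in those labelled ERβ5, below all control and knockout libraries, so the counts do not show an isoform put back and these groups are named by label only. The median interferon-induced gene lay 0.43 and 0.45 log2 units above the control mean in the libraries labelled ERβ1 and 1.97 and 2.94 above it in those labelled ERβ5. The median mitosis gene lay below the control mean, at -0.93 and -0.72 in the libraries labelled ERβ1 and -0.28 and -0.20 in those labelled ERβ5, and above it in both knockout libraries. ER chaperones lay below the control mean in all 6 other libraries, between -0.31 and -0.59. These comparisons share the control libraries.

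The medians of the metabolic lists given here lay between -0.28 and 0.22. In glycolysis 6 of 23 genes fell and 0 rose (median -0.28). Without knockout replicate 2 the count was 10, and it was 0 in the other 3 fits with a library left out. The glycolytic enzyme ENO1 was at 2033 and 1767 CPM in control and 1077 and 1438 CPM in the knockout (-0.60 ± 0.14, adjusted p = 0.017) and LDHA, which makes lactate, at 1122 and 958 and 555 and 822 CPM (-0.59 ± 0.16, adjusted p = 0.028). In both genes knockout replicate 2 lay nearer to control, and the calls were lost with a library left out (highest adjusted p 0.13 without control replicate 1 and 0.19 without control replicate 1). Glycolysis genes that fell with the GC and length trend removed numbered 2. In cholesterol synthesis 8 of 24 genes rose and 1 fell. The 8 became 0 without control replicate 2, 1 without knockout replicate 1, 2 without control replicate 1 and 4 without knockout replicate 2. HMGCS1, an early enzyme of the pathway, went from 195 and 182 to 307 and 290.4 CPM (0.66 ± 0.12, adjusted p = 0.0048, but 0.072 without control replicate 2). The acetyl-CoA carboxylase ACACB fell by 0.90 ± 0.15 on the log2 scale (adjusted p = 0.0041), and the pentose phosphate enzyme TKT from 1154 and 1162 to 607 and 676 CPM (-0.85 ± 0.11). The share that fell over all genes tested was 8.52%. Of respiratory chain subunits, 6 of 38 in complex I fell and 1 rose, and 6 of 41 in complexes II to V fell and 0 rose. Of these lists 4 and 12 fell with the GC and length trend removed, and with a library left out 0 to 8 and 0 to 6.

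In the NOTCH and WNT pathways of development 16 and 20% of tested members fell, against 8.52% of all genes tested. With the GC and length trend removed, 711 of all 13915 genes fell. In the NOTCH list 4 of 25 fell and 0 rose (median -0.34, and -0.003 with the GC and length trend removed, when 2 fell and 2 rose). With a library left out 1 to 5 fell. LFNG, which modifies NOTCH receptors, went from 26.3 and 23.7 to 13.1 and 13.5 CPM (-0.91 ± 0.13, adjusted p = 0.0016). In the WNT list 8 of 40 fell and 1 rose, but 3 fell and 0 rose with the GC and length trend removed, and 1 to 3 fell with a library left out. The WNT receptor FZD8 was at 62.5 and 62.5 CPM in control and 28.5 and 24 CPM in the knockout (-1.25 ± 0.14, adjusted p = 0.00048). The chemokine receptor CXCR4 went from 97.4 and 94.2 to 37.6 and 43.1 CPM (-1.25 ± 0.13, adjusted p = 0.00045). Among BCL2 family genes 2 of 17 rose and 5 fell. These were 2 and 1 with the GC and length trend removed, and with a library left out 0 rose and 1 to 3 fell. The death-promoting BMF was at 25.2 and 26.9 CPM in control and 11.9 and 10.7 CPM in the knockout (-1.20 ± 0.14, adjusted p = 0.00075).

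The epithelial features of the cells shifted in single genes. Over all genes tested 8.98% rose and 8.52% fell. Of 33 tested keratins and simple epithelial markers 6 fell and 1 rose (4 and 2 with the GC and length trend removed, and 3 to 8 and 0 or 1 with a library left out). KRT19 went from 1062 and 1144 to 589 and 663 CPM (-0.82 ± 0.11, adjusted p = 0.0014) and KRT8 from 2980.3 and 3292 to 2057 and 2113 CPM (-0.59 ± 0.11, adjusted p = 0.0075, but 0.11 without control replicate 2). Of 20 tested luminal transcription factors 3 rose and 1 fell (1 or 2 rose with a library left out). EHF went from 25.1 and 22.7 to 57 and 53.4 CPM (1.21 ± 0.13, adjusted p = 0.0005), while SPDEF, also of the ETS family, went from 652 and 645 to 338 and 428 CPM (-0.76 ± 0.13, adjusted p = 0.0039). SPDEF had, with the GC and length trend removed, a log2 change of -0.35 (adjusted p = 0.018) and KRT19 of -0.45 (adjusted p = 0.015). Of the glioma markers, LGALS1 fell by 0.69 ± 0.10 on the log2 scale and FN1 rose by 0.79 ± 0.14 (adjusted p = 0.0024 and 0.0048, the latter 0.064 without control replicate 2), and LGALS1 lost the call with the GC and length trend removed (adjusted p = 0.074).

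Among 24 tested steroid and nuclear receptors and coregulators 2 rose and 5 fell, and 2 rose and 2 fell with the GC and length trend removed. With a library left out 0 to 2 rose and 0 or 1 fell. ESR1, the gene of estrogen receptor alpha, was at 131 and 115 CPM in control and 141 and 130.1 CPM in the knockout and did not pass (0.14 ± 0.12, adjusted p = 0.42). The progesterone receptor gene PGR, an estrogen target, had 0 reads in 3 of the 4 libraries and 2 in knockout replicate 2. NRIP1, a corepressor induced by estrogen, rose from 56.5 and 51 to 87.7 and 86.8 CPM (0.70 ± 0.10, adjusted p = 0.0018, but 0.052 without control replicate 2), and the orphan receptor ESRRA fell by 0.76 ± 0.14 on the log2 scale (adjusted p = 0.007, but 0.066 without control replicate 2). Of 30 tested estrogen-response genes 5 rose and 2 fell. Counts were 8 and 1 with the GC and length trend removed, and with a library left out 2 to 4 rose and 0 to 2 fell. MYBL1 rose by 1.65 ± 0.28 and IGFBP5 fell by 1.36 ± 0.24 on the log2 scale (adjusted p = 0.0043 and 0.0054, the latter 0.066 without control replicate 2).

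The largest falls were of genes with varied roles. LOC100287177, an uncharacterised gene, went from 16.7 and 15.1 to 2.02 and 3.06 CPM (-2.67 ± 0.27, adjusted p = 0.00028), the largest fall among genes with at least 5 CPM. SPAG4, a nuclear envelope protein, went from 23.4 and 20.5 to 5.37 and 8.86 CPM (-1.64 ± 0.21), and the monoamine transporter SLC29A4 from 10.9 and 10.5 to 3.35 and 3.62 CPM (-1.62 ± 0.18). The actin bundler VIL1, the chaperone partner SDF2L1, the tetraspanin TSPAN1 and the secreted AZGP1 fell by 1.51 ± 0.22, 1.29 ± 0.21, 1.23 ± 0.12 and 1.23 ± 0.20 on the log2 scale. All of these were called in each of the 4 fits with a library left out. In contrast CASP14 and UPP1, with changes of -1.37 ± 0.29 and -1.24 ± 0.22, lost the call (highest adjusted p 0.11 without control replicate 2 and 0.052 without control replicate 2).

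The change of a gene went with the GC content of its transcript. Over the 13249 genes with a known transcript (95.2%) the correlation across genes of log2 change with GC was -0.454, as a description, since genes are not replicates and share the libraries. Of 10 classes of equal size by GC content, the lowest (median 36.8%) had a median change of 0.34, with 26.8% called higher and 0.377% called lower. The highest class (median 64.1%) had a median of -0.37, with 0.604% called higher and 27.5% called lower. After each library's trend with GC and length was removed, the correlation was -0.0131, 1024 genes were higher and 711 lower, and 1182 of the 2434 genes kept their call. The part of GC in the small changes of single genes was not tested further.

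**Figure D5:**
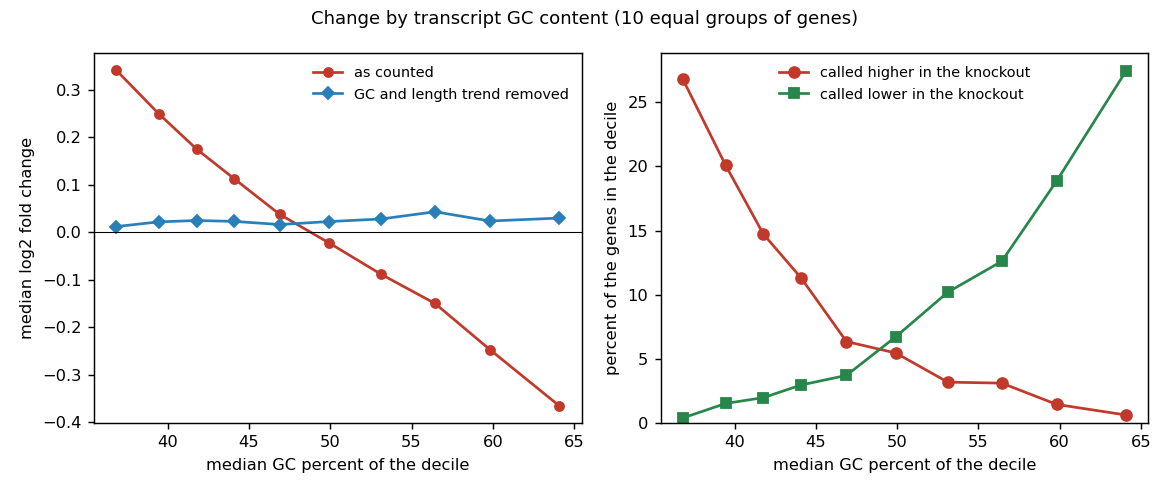
Tested genes in 10 equal groups by transcript GC content. Left, the median log2 fold change of knockout over control as counted (red) and with the GC and length trend removed (blue), and right, the percent of genes called higher (red) and lower (green). As counted, the median falls from 0.34 to -0.37 with rising GC, and with the trend removed it stays between 0.01 and 0.04.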

How the data were processed

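The deposited files hold raw read counts per gene, whole numbers from single-end reads of 50 bases of total RNA. Per the submitters' processing notes, the authors used bcl2fastq, TopHat2 2.0.8b and HTSeq with the build hg19, and per the series' design text genes were quantified with HTSeq and DESeq. Neither the strand setting nor the annotation release is given in the sources used here. The 5 closing rows of each file that name no gene were left out of library sizes and tests. The row of alignments to no single place was among them, at 35.4 to 39.9% of all counts in these 4 libraries.

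Groups came from the library titles. Over all 8 libraries, low genes were removed with filterByExpr of edgeR (at least 10 counts, 15 in total), and TMM factors scaled the libraries. The test was the quasi-likelihood F test of edgeR 4.0.16 in R 4.3.3, with all 8 libraries in 1 fit. The groups share an estimate of the spread because 2 libraries a group give little of their own (common biological coefficient of variation 0.102). The Benjamini-Hochberg adjustment ran over the 13915 genes tested. A gene was called at an adjusted p under 0.05. The SE of a log2 fold change is its absolute value over the root of the F statistic. The procedure was tested on simulated counts. Replicate numbers were not treated as pairs. Deviations of same-numbered control and knockout libraries correlated at r = -0.118.

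The comparison, gene lists and motifs were chosen with earlier results of these data known, so lists are described by counts and medians with no test. A list's symbols were looked up in the files, with older synonyms. Named genes are the 15 largest rises and falls among called genes whose groups did not overlap and whose higher group reached 5 CPM, up to 5 called members with the smallest adjusted p in each direction of a list (3 in a symbol family), any member of 10 short lists fixed by name, and the extreme markers. GC content and length come from the longest GENCODE v44lift37 transcript of a gene, and GRCh37 positions from its gene record. Promoters come from RefSeq on GRCh38.p14. A gene counted as holding a motif if any of its windows did. Mitochondrially encoded genes and LINC-named genes are not analysed here, and a few further genes are not reported here. Alternatives were other size factors, other filters on low counts, a minimum change of 1.5-fold, DESeq2 1.42.0, a fit of the 4 libraries, a replicate block, GC and length offsets (lowess, span 0.3) and leaving out each library.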

Additional observations from a re-analysis of the deposited data

How the results depend on the processing

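Size factors by relative log expression or upper quartile, a minimum of 1 CPM in 2 libraries, no filter on low counts and DESeq2 moved the number of genes called and each of 6 list counts by less than 1.5 times. When a change of at least 1.5-fold was required, edgeR called 123 genes, 94 higher and 29 lower, all of at least 2-fold against 399 such genes, with 49 interferon-induced, 7 mitosis, 0 recombination and 0 replication genes higher and 5 chaperones and 0 ribosomal proteins lower. A fit of only the 4 libraries called 4351 genes (2381 higher, 1970 lower). With the GC and length trend removed 711 genes were lower, and with a replicate block as well 262 changed by at least 2-fold. The replicate number as a block gave 2532 calls in the fit of all libraries, changed the call of 1 named gene, HLA-F (adjusted p = 0.045), and gave 4607 calls (2488 higher, 2119 lower, 31 replication genes higher) in a fit of the 4 libraries. That last fit and a crossed pairing, with 5129 calls (2721 higher, 2408 lower, 32 replication genes higher), were chosen after seeing the data. Leaving out 1 library gave 237 to 1480 calls (136 to 668 higher, 101 to 812 lower, 140 to 415 of at least 2-fold), with 45 to 68 interferon-induced, 19 to 54 mitosis, 2 to 19 recombination and 3 to 20 replication genes higher, and 7 to 20 chaperones and 5 to 61 ribosomal proteins lower. The lone library of the reduced group was taken to vary as the other groups did. The cause of these shifts was not tested. GC content averaged over all transcripts gave r = -0.46 in place of -0.454. Among tested genes only, the ER stress element was in 0.152% and the E2F site in 3.58%, against 0.0916% and 2.17% of all genes. Genes under about 1 CPM, such as ESR2 and the interferon ligands, rest on few reads, and with 2 libraries a group the strength of small changes is limited.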

Other observations

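Several genes outside the lists stood apart in all 4 fits with a library left out. They were chosen after their values were seen. TXNIP, which binds thioredoxin and limits glucose uptake, was at 4.43 and 4.97 CPM in control and 34.3 and 20.1 CPM in the knockout, a log2 change of 2.54 ± 0.28 (edgeR adjusted p = 0.001). Its relative in the arrestin family, ARRDC3, went from 7.35 and 7.64 to 43.2 and 33.3 CPM (2.35 ± 0.16, adjusted p = 1.5e-05). Both are above the 4-fold level that 70 genes reached, and both kept their rise with the GC and length trend removed (2.46 and 2.04). The reductase DHRS2 went from 41.3 and 34.3 to 137 and 134 CPM (1.84 ± 0.15). KMO, an enzyme of tryptophan breakdown, complement C5 and the prostaglandin synthase PTGES rose by 1.71 ± 0.25, 1.5 ± 0.20 and 1.48 ± 0.17. Of genes with roles in cell division that no list held, the kinase MELK, the kinase PBK and the repair polymerase POLQ rose by 1.08 ± 0.14, 1.04 ± 0.14 and 1.04 ± 0.17. The groups did not overlap in any of these genes, as in all 1249 genes called higher.

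Among falls outside the lists, RABAC1, an acceptor of Rab proteins, went from 103 and 95.3 to 36 and 53.1 CPM (-1.16 ± 0.16, adjusted p = 0.0018), and the surface protein TM4SF1 from 288 and 279 to 142 and 159 CPM (-0.91 ± 0.12, adjusted p = 0.0011). HSP90B3P, a pseudogene of HSP90B1, was at 205 and 210.5 CPM in control and 91.1 and 99.9 CPM in the knockout (-1.12 ± 0.11), close in size to the fall of HSP90B1 itself (-1.17 ± 0.11). Reads of these near-identical copies may be split between them. GLTSCR2 fell from 375 and 351 to 163 and 224 CPM (-0.91 ± 0.13). RETN, a secreted hormone gene, was low in control at 0.803 and 1.04 CPM and near 0 in the knockout at 0.0229 and 0.0659 CPM. Of the solute carriers, SLC22A31, an orphan transporter gene, went from 2.58 and 2.48 to 0.115 and 0.395 CPM (-3.41 ± 0.39, adjusted p = 0.00067).

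Families of genes defined by symbol alone are given by their counts, beside 8.98% higher and 8.52% lower over all genes tested. The shares of zinc finger genes, 7.59 and 4.24%, were below these. Of 448 zinc finger (ZNF) genes 34 rose and 19 fell, and 12 rose and 12 fell with the GC and length trend removed. Of 233 solute carriers 21 rose and 33 fell, and 15 rose and 19 fell with that trend removed. With a library left out 0 to 15 ZNF genes rose and 0 to 15 fell, as did 3 to 11 and 5 to 20 solute carriers. Kinesins, many of which act in mitosis, rose in 12 of 35 and fell in 2 (15 and 0 with that trend removed, and 1 to 10 and 0 with a library left out). Of 33 splicing factors of the SR and hnRNP families 10 rose and 0 fell, led by SRSF5 (0.71 ± 0.11) and HNRNPR (0.62 ± 0.09), and 5 rose and 1 fell with the GC and length trend removed, when HNRNPR did not pass (adjusted p = 0.22). With a library left out 2 to 5 splicing factors rose.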
